A study of Mus musculus with 56 samples.

Results

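The mouse mitochondrial genome is a small circular DNA that is separate from the chromosomes. It encodes subunits of the respiratory chain and of the ATP synthase, together with the ribosomal and transfer RNAs used to translate them inside the organelle. Both strands are transcribed as long precursors, and in many places a transfer RNA lies between neighbouring genes and is cut out to release the RNAs on either side. The released messenger RNAs are polyadenylated, and for several of them the poly(A) tail supplies the last bases of the stop codon. Muscle fibres rich in mitochondria use these proteins for oxidative ATP production, so transcripts of mitochondrial DNA are abundant in muscle RNA.

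The transcripts described here are 10 genes of that genome, listed by name, with no threshold on a measured value in the rule. They are mt-Nd1, mt-Nd2, mt-Nd4 and mt-Nd5, which encode subunits of complex I (NADH dehydrogenase), mt-Cytb, which encodes cytochrome b of complex III, mt-Co1, mt-Co2 and mt-Co3, which encode the core of complex IV (cytochrome c oxidase), mt-Atp6, which encodes a subunit of complex V (ATP synthase), and mt-Rnr2, the 16S ribosomal RNA. Of the 10 genes, 7 have a row among the 15539 genes of the count table, and mt-Co2, mt-Co3 and mt-Atp6 were not analysed here. The 7 measured transcripts are 6 messengers and mt-Rnr2. Of the 37 genes that the annotation places in the mitochondrial genome, 24 have a row, which are 8 of 13 protein-coding genes, 2 of 2 ribosomal RNAs and 14 of 22 transfer RNAs.

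The counts come from gastrocnemius muscle of 56 C57Bl/6 mice, 7 in each of 8 groups that cross sex, genotype and wheel. Controls were HuR fl/fl littermates, floxed at Elavl1, the gene for the RNA-binding protein HuR, and the HuR m-/- mice carried in addition Cre recombinase driven by the Mlc1f promoter, which is active in skeletal muscle fibres. Mice had chow 5015 and either a locked wheel (labelled Baseline) or a running wheel for 10 weeks, placed by one label from 10 to 20 weeks of age, while another gives 5 months of age. The Elavl1 transcript itself did not fall with the HuR m-/- label: the averaged log2 difference was 0.13 with a standard error of 0.058 and an adjusted p of 0.15 in limma, and in running males it was 0.44 higher (adjusted p = 0.0242). The counts are totals per gene and do not show whether reads came from the deleted part of Elavl1, so they do not test the deletion, and genotype comparisons below use the labels.

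Total counts ran from 6639782 to 21633091 per mouse, and the fewest counts of any of the 7 transcripts in any mouse were 22575, on mt-Nd5, so counting error was at most 0.666% of a value. The skeletal muscle markers summed to between 68507 and 92267 CPM, a scale on which every library has the same total. Xist was above Ddx3y in 28 of 28 females and 0 of 28 males. The 20 liver markers in the table summed to a median of 118 CPM but to between 26.2 and 4310 CPM over the mice, and 11 mice were above 500 CPM, which were 3 female controls, 1 female HuR m-/- mouse, 1 male control and 3 male HuR m-/- mice with locked wheels and 3 male HuR m-/- mice with running wheels. For the 7 transcripts and the averaged counts of transfer RNA genes, tested results that change when those 11 mice are left out are given both ways. Other single genes, gene lists, and transfer RNA genes in single pairs or interactions are given with all mice only.

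The ends of the 7 measured transcripts are shown because the sample labels name a kit that reads 3′ ends with 50-base reads. Each is the last 60 bases of the GENCODE transcript, on the GRCm38 mitochondrial chromosome, with the annotated stop codon in capitals, or the single T that polyadenylation completes to a stop codon.
mt-Rnr2: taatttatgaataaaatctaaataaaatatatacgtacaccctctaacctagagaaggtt
mt-Nd1: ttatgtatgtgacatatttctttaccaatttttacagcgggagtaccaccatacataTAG
mt-Nd2: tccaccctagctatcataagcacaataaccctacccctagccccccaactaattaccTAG
mt-Co1: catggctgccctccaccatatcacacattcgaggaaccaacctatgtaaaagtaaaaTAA
mt-Nd4: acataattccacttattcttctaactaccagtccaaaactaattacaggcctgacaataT
mt-Nd5: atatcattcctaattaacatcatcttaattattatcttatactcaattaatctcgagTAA
mt-Cytb: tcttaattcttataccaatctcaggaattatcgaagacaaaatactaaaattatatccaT
The lengths of mt-Nd4 and mt-Cytb leave 1 base after the last whole codon, and the T shown is that base. The 16S ribosomal RNA ends without a stop codon, since it is not translated, and 45.0% of its last 60 bases are A.

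The 7 genes lie on the + strand. Their annotated positions are mt-Rnr2 at chrM:1094-2675, mt-Nd1 at chrM:2751-3707, mt-Nd2 at chrM:3914-4951, mt-Co1 at chrM:5328-6872, mt-Nd4 at chrM:10167-11544, mt-Nd5 at chrM:11742-13565 and mt-Cytb at chrM:14145-15288. All 7 are genes without introns.

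The genome also holds copies of mitochondrial DNA on the nuclear chromosomes, and a 50-base read from a shared stretch fits both places. A block of such copies lies on chromosome 1 between positions 24611535 and 24616197. Of the 50-base windows of mt-Co2, 100% occurred in another annotated transcript as well, for mt-Co3 it was 99.9% and for mt-Atp6 99.5%. The 7 measured transcripts shared less, with 62.2% for mt-Nd4, 51.1% for mt-Co1, 8.19% for mt-Nd2, 7.61% for mt-Nd5, 1.04% for mt-Rnr2, and 0 for mt-Nd1 and mt-Cytb. In the last 300 bases the shared windows were 0% for mt-Nd4, 31.9% for mt-Nd2 and 100% for mt-Co1, so the levels of mt-Co1 and, in part, mt-Nd2 are uncertain if reads came from 3′ ends. The study's methods name a total RNA kit instead. If reads came from whole transcripts, the levels of mt-Nd4 and mt-Co1, with the largest shared parts of the 7, are uncertain. How reads with 2 or more places were counted is not given in the sources used here. The copies with a row of counts had few. Gm13341, a pseudogene that shares windows with mt-Co2, had a median of 22.9 CPM. The median of Gm13340, which shares windows with mt-Co1, was 5.82 CPM. Gm28439, which shares windows with mt-Nd4, has no row. Few counts on the copies do not show how shared reads were assigned.

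The 7 transcripts together took between 18.4% and 28.5% of all counts of a mouse. In the locked-wheel groups their mean share was 25.3% ± 1.5 (SD, n = 7) in female controls, 23.3% ± 1.4 in female HuR m-/- mice, 24.6% ± 0.60 in male controls and 22.97% ± 0.82 in male HuR m-/- mice. With a running wheel the shares were 21.3% ± 1.2 in female controls, 21.2% ± 1.4 in female HuR m-/- mice, 27.2% ± 1.6 in male controls and 23.5% ± 1.4 in male HuR m-/- mice. Running female controls, at 19.02% to 22.6%, lay below all locked female controls, at 23.6% to 27.7%, while the ranges of the other wheel pairs overlapped. These shares were not tested, because they are sums over chosen genes.

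The 6 messengers carried most of the difference between running males and females. Their mean summed share was lowest in running female HuR m-/- mice at 13.4%, with values from 11.1% to 14.5% and a median of 14.1%, which was above the medians of locked female HuR m-/- mice (13.7%) and running female controls (13.8%). The highest mean was 19.007% in running male controls, with values from 17.2% to 21.2%. All 7 running male controls were above all 7 locked male controls, whose highest value was 17.03%. All 7 running female controls, with a highest value of 14.6%, were below all 7 locked female controls, whose lowest value was 15.1%. Wheel groups of control mice were thus separated in this summed share in both sexes, in opposite directions. The separation was not tested, and how often other genes separate in this way was not counted. In the limma comparison of male controls below, 1 of 7 transcripts was called, and its groups overlapped after scaling.

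**Figure D1:**
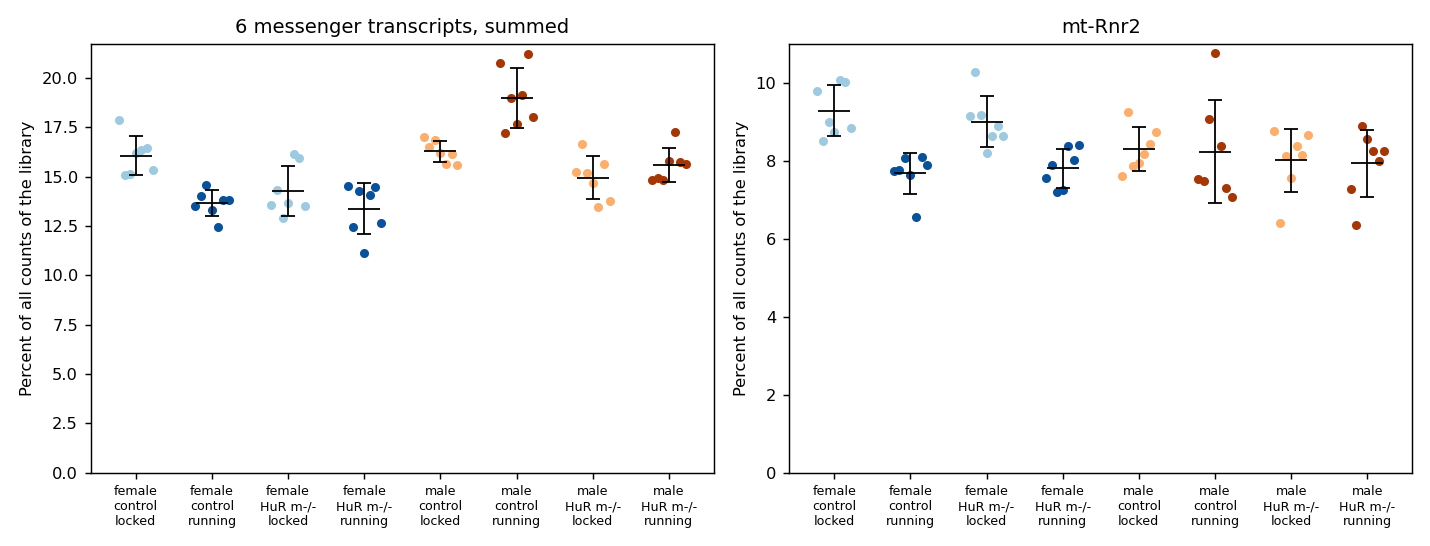
Share of all counts of a library, in percent, for the 6 messenger transcripts summed (left) and for mt-Rnr2 (right), with 1 point per mouse in each of the 8 groups, and the mean and SD of 7 mice as a bar with caps. The messenger share of running male controls sits between 17.2% and 21.2%, above locked male controls, and that of running female controls between 12.5% and 14.6%, below locked female controls.

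The library total itself held a second abundant RNA. Gm42418, a gene that overlaps ribosomal RNA, took 11.2% of counts in locked and 12.6% in running female controls, and 10.5% in locked and 7.69% in running male controls, so it moved against the messengers. Its part in the shares was not tested. When Gm42418 was taken out of the total, the 7 transcripts held 28.5% in locked and 24.4% in running female controls, and 27.5% in locked and 29.5% in running male controls, in the same directions as with it.

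Per kilobase of annotated length and averaged over the 56 mice, mt-Rnr2 was the highest of the 7 transcripts at 52392 CPM per kb (SD 5726). It was followed by mt-Nd2 at 38397, mt-Nd4 at 35095, mt-Nd1 at 30683, mt-Cytb at 24049, mt-Co1 at 3151 and mt-Nd5 at 2197 CPM per kb. The neighbours mt-Nd2 and mt-Nd4 were in this order in 46 of 56 mice, and their ratio ran from 0.805 to 1.36 with a median of 1.09. mt-Rnr2 was above mt-Nd2 in 54 mice, with a ratio from 0.838 to 1.98, and mt-Nd4 above mt-Nd1 in 54 mice, with a ratio from 0.891 to 1.41. These 3 pairs of neighbours thus overlapped in the spread between mice, while the remaining steps held in all 56. The largest step was from mt-Cytb to mt-Co1, with a median ratio of 7.48. Counts from a 3′ kit do not grow with transcript length, and on such counts a level per kilobase would rank long transcripts too low.

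Of the counts on the 7 transcripts, mt-Rnr2 made up 35.1% on average, mt-Nd4 20.4%, mt-Nd2 16.8%, mt-Nd1 12.4%, mt-Cytb 11.6%, mt-Co1 2.06% and mt-Nd5 1.69%. This composition does not depend on the library total. It may depend on how well the kit, which is not settled, captured a ribosomal RNA beside messengers, and this was not tested. mt-Rnr2 as a percentage of the counts on the 7 transcripts differed by sex. In locked controls the values of females ran from 35.1% to 38.1% with a median of 36.6%, and those of males from 30.9% to 36.0% with a median of 34.3%. In running controls females ran from 34.5% to 37.0% with a median of 36.4%, and males from 25.6% to 37.9% with a median of 30.3%. Females were higher on average in each pair, with ranges that overlapped.

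Averaged over the 4 pairs of groups, mt-Rnr2 made up 37.1% of these counts in females and 33.2% in males, a difference of 3.94 percentage points. A two-sided permutation test within strata with 100000 resamples gave p = 1e-05, the smallest it can give, and 0.00015 after Benjamini-Hochberg adjustment over 15 comparisons. In mice labelled HuR m-/- the percentage was 1.93 points higher than in controls (36.1% against 34.2%, permutation p = 0.00815, adjusted 0.0306). With a running wheel it was 1.78 points lower than with a locked wheel (34.2% against 36.0%, permutation p = 0.0133, adjusted 0.04). The wheel difference missed the threshold when any 1 of 27 mice was left out, with adjusted p up to 0.0737, and the genotype difference when male control running mouse 28 or male HuR m-/- locked mouse 9 or 24 was left out, with adjusted p up to 0.0559. Without the 11 mice with liver markers the sex difference was 4.34 points (adjusted 0.00015), while the wheel and genotype differences, at -2.25 and 1.56 points, were no longer past the threshold (adjusted permutation p = 0.0682 and 0.19).

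In single pairs of groups, exact two-sided permutation tests of 7 against 7 mice passed after adjustment for the sex difference in locked controls (2.88 points, p = 0.00524, adjusted 0.0291) and in running controls (5.82 points, p = 0.00583, adjusted 0.0291). Without male control running mouse 28 the latter missed the threshold at 0.0559, and without the 11 mice with liver markers the former did at 0.114, with 3.005 points. The sex differences of 3.79 points in locked and 3.28 points in running HuR m-/- mice had exact p = 0.0408 and 0.0297, which adjusted to 0.0874 and 0.0743. None of the 4 wheel and 4 genotype pairs passed, with adjusted exact permutation p from 0.11 to 0.482.

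**Figure D2:**
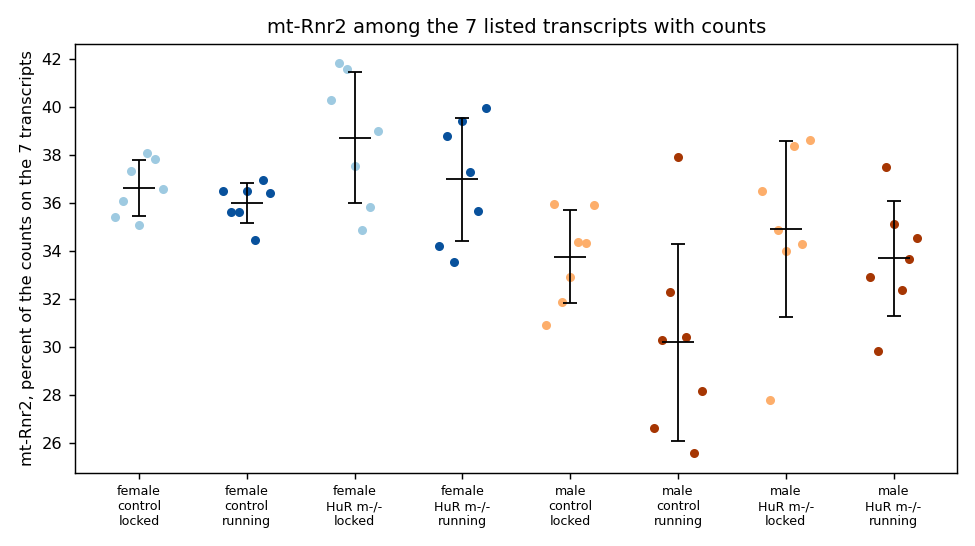
mt-Rnr2 as a percentage of the counts on the 7 transcripts, with 1 point per mouse in 8 groups and the mean and SD of 7 mice as a bar with caps; the axis does not start at 0. The female groups average between 36.0% and 38.7% and the male groups between 30.2% and 34.9%.

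The levels of single transcripts were compared with TMM scaling, voom and limma over 14321 genes. A gene is called where the Benjamini-Hochberg adjusted p of its comparison was 0.05 or less, and differences are log2 values with a standard error. All 7 transcripts were tested.

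Sex came with lower messengers in females. Averaged over genotype and wheel, the 6 messengers were lower in females and mt-Rnr2 was not called, so 6 of 7 were called where 33% of all genes were called and 17.1% were lower. Cytochrome b had the largest difference, with mt-Cytb at -0.32 (SE 0.036, adjusted p = 1.69e-10). mt-Nd5, a proton-pumping subunit of complex I, was at -0.31 (SE 0.031, adjusted p = 9.72e-12). The other complex I transcripts were mt-Nd2 at -0.29, mt-Nd4 at -0.26 and mt-Nd1 at -0.24, and mt-Co1, the catalytic subunit of complex IV, fell least at -0.17. mt-Rnr2 was at -0.02 (95% interval -0.10 to 0.06), and its sign turned with other scalings. The median of the 7 was -0.26 beside 0.00 over all genes.

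The sex difference differed between pairs of groups. In running controls 6 of 7 transcripts were lower in females, where 7.65% of all genes were called and 4.57% were lower. On the normalized scale mt-Nd4 was between 38009 and 47467 CPM in running female controls (median 42421), and between 56940 and 76474 CPM in running males (median 62571). The mice of the 2 groups did not overlap, and the log2 difference was -0.62 (SE 0.079, adjusted p = 4.78e-08). mt-Cytb was between 22137 and 24833 CPM in these females and between 31370 and 42028 CPM in these males, again without overlap, at -0.58 (adjusted p = 2.21e-08).

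In running HuR m-/- mice 4 of 7 transcripts were lower in females (mt-Nd4, mt-Nd5, mt-Co1 and mt-Cytb), where 5.57% of all genes were called and 3.26% were lower, and mt-Nd5 had the largest difference at -0.39. Without the 11 mice with liver markers 3 were called, mt-Co1 being lost (adjusted p = 0.0515). With locked wheels only mt-Nd5 was called in controls (-0.18, adjusted p = 0.0327, 21.5% of all genes called, 11.2% lower) and only mt-Cytb in HuR m-/- mice (-0.26, adjusted p = 0.009, 19.3% of all genes called, 10.2% lower). Both locked-wheel calls were lost without the 11 mice with liver markers, with adjusted p of 0.108 and 0.0989. mt-Nd5 in locked controls was also lost without any 1 of 7 of the compared mice, namely female control locked mice 15, 20 and 33 and male control locked mice 16, 17, 20 and 29, when 0 transcripts were called.

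Cell markers also differed by sex. Against 33% of all genes called, the slow fibre markers were higher in females for 8 of 8 genes, adipocyte markers for 8 of 10, leukocyte markers for 8 of 10 and erythroid markers for 5 of 7. The summed adipocyte markers had medians of 3913 CPM in locked female controls and 2107 CPM in locked male controls. Their part in the sex difference was not tested, and in bulk muscle fewer cells of a type and less RNA per cell cannot be told apart.

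Genotype came with lower messengers too. Averaged over sex and wheel, 6 of 7 transcripts were lower in mice labelled HuR m-/- and mt-Rnr2 was not called, where 11.8% of all genes were called and 7.41% were lower. mt-Nd2 had the largest difference at -0.28 (SE 0.053, adjusted p = 0.000228), a level 17.5% lower. mt-Nd4 was at -0.21 (SE 0.039, adjusted p = 0.000183), mt-Cytb at -0.19, mt-Nd1 at -0.18 and mt-Co1 at -0.18. mt-Nd5, at -0.18, had the smallest adjusted p of the 7, 4.82e-05. mt-Rnr2 was at -0.09 (95% interval -0.17 to -0.01, adjusted p = 0.139). The median of the 7 was -0.18 beside 0.01 over all genes.

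Among the 4 pairs, running males had the largest genotype differences. There 6 of 7 transcripts were lower in mice labelled HuR m-/-, where 2.63% of all genes were called and 1.87% were lower. mt-Nd4 was between 56940 and 76474 CPM in control and between 44654 and 58024 CPM in HuR m-/- running males, at -0.41 (SE 0.078, adjusted p = 0.00244). The groups overlapped at their edges. mt-Nd2 was between 34540 and 61213 CPM in those controls and between 32246 and 46509 CPM in the HuR m-/- mice, at -0.38 (adjusted p = 0.0357), with a wide overlap.

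Of those 6 calls, mt-Nd4 and mt-Cytb held with each mouse left out, with adjusted p up to 0.0195 and 0.0399. The calls of mt-Nd2, mt-Co1 and mt-Nd5 were sensitive to single mice, and that of mt-Nd1 was lost without any 1 of 33. Between 2 and 3 transcripts were called without male control running mouse 10, 25, 26 or 28, or without male HuR m-/- running mouse 2, 6, 7, 21 or 22, and 0 were called without the 11 mice with liver markers, where the differences were still -0.18 to -0.37. In locked females, locked males and running females 0 of 7 were called in limma, where 0.384%, 1.15% and 0% of all genes were called. Without adjustment 5, 4 and 0 of the 7 had p below 0.05 there, and by DESeq2 0, 1 and 0 were called. Locked males had 1 call without male HuR m-/- locked mouse 12 or running mouse 4. All 7 estimates were negative in each of the 4 pairs, and the test of a different genotype effect by sex or by wheel called 0 of 7 transcripts (0.00698% of all genes in each, and 0 of 7 by an unadjusted p below 0.05).

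**Figure D3:**
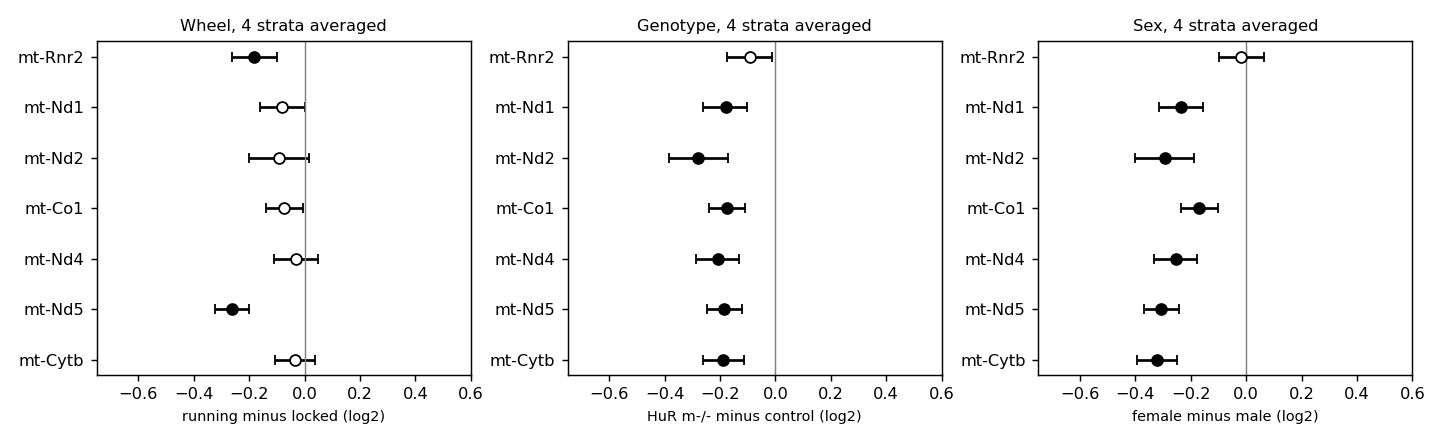
Log2 differences of the 7 transcripts for wheel (left, running minus locked), genotype (middle, HuR m-/- minus control) and sex (right, female minus male), each averaged over 4 pairs of groups, with 95% intervals; filled points are called at an adjusted p of 0.05 or less. The 6 messengers sit below 0 for genotype and sex, and mt-Rnr2 and mt-Nd5 below 0 for the wheel.

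Respiratory chain subunits encoded in the nucleus were described from fixed lists beside their mitochondrial partners. For genotype, where 11.8% of all genes were called, 20 of 36 complex I subunits were lower, as were 4 of 9 of complex III, 8 of 13 of complex IV and 9 of 17 of complex V, and none of the 75 was higher. Cox5a of complex IV was at -0.20 (adjusted p = 0.000147), Atp5c1 of complex V at -0.27 and Uqcr10 of complex III at -0.16. The medians of the 4 lists were between -0.17 and -0.10.

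For sex, where 33% of all genes were called, the nuclear subunits had calls in both directions, and complexes I and IV were called about as often as genes in general. Complex I had 5 higher and 6 lower in females, complex III 4 higher and 1 lower, complex IV 4 higher and none lower, and complex V 4 higher and 3 lower. Cox6c of complex IV was at 0.20 (adjusted p = 2.09e-06) and Uqcrb of complex III at 0.15, while Ndufv1 of complex I was at -0.23. The list medians were between 0.01 and 0.07, where the 7 mitochondrial transcripts had a median of -0.26.

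The genes that transcribe and copy mitochondrial DNA and process its RNA were read against the shares of all genes called. These were 5.96% for wheel, 11.8% for genotype and 33% for sex. Neither list was called clearly more often than genes in general for wheel, genotype or sex, so the genes named here are single calls. Of 19 tested genes of transcription and replication, genotype came with Polg2, the accessory subunit of the mitochondrial DNA polymerase, higher (0.53, adjusted p = 0.0204), and with Mgme1, a nuclease of mitochondrial DNA replication, and Tfb2m, a transcription initiation factor, lower (-0.30 and -0.24). Sex came with 4 higher in females, among them Twnk, the replicative helicase (0.41), and 1 lower, Dguok, which makes nucleotides for mitochondrial DNA (-0.23). Of 26 tested genes of RNA processing and stability, 4 were lower in HuR m-/- mice, among them Lrpprc, which stabilizes mitochondrial messengers (-0.14, adjusted p = 0.0281). Its partner Slirp was the 1 gene of that list called for the wheel (-0.19, adjusted p = 0.0119), and for sex 3 were higher and 6 lower in females.

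The slow fibre markers were higher in mice labelled HuR m-/- for 8 of 8 genes, with a list median of 0.50, and the fast fibre markers were lower for 1 of 9. The part of this difference in the genotype results was not tested.

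With the wheel, mt-Nd5 and mt-Rnr2 were lower. Averaged over sex and genotype, 2 of 7 transcripts were lower with a running wheel, where 5.96% of all genes were called and 2.54% were lower. mt-Nd5 was at -0.26 (SE 0.031, adjusted p = 4.66e-08) and mt-Rnr2 at -0.18 (SE 0.041, adjusted p = 0.00315). The other 5 were between -0.09 and -0.03 with adjusted p from 0.199 to 0.727. The values in the 2 sexes behind these averages differed, as follows.

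In female controls 5 of 7 transcripts were lower with a running wheel, where 8.74% of all genes were called and 4.23% were lower. mt-Nd5 was between 3929 and 4734 CPM with a locked wheel and between 2911 and 3449 CPM with a running wheel, without overlap, at -0.44 (SE 0.063, adjusted p = 8.98e-06). mt-Rnr2 was between 83444 and 104350 CPM with a locked wheel and between 64088 and 81575 CPM with a running wheel, again without overlap, at -0.29 (adjusted p = 0.017). mt-Nd4, mt-Cytb and mt-Co1 were at -0.26, -0.24 and -0.24. The count was 3 without female control locked mouse 12 or running mouse 27, 2 without running mouse 28, and 1 (mt-Nd5) without the 11 mice with liver markers, 3 of which were locked female controls. Without the 11 mice mt-Rnr2, mt-Nd4, mt-Cytb and mt-Co1 were not called, at -0.31, -0.28, -0.24 and -0.22.

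In female HuR m-/- mice 2 of 7 were lower with a running wheel, where 3.85% of all genes were called and 1.8% were lower. mt-Nd5 was at -0.38 (adjusted p = 8.75e-05), and mt-Rnr2 at -0.26 with an adjusted p of 0.0493, which rose above 0.05 without any 1 of 31 mice, when 1 transcript was called.

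In male controls the messenger mt-Nd4 was higher with a running wheel, the 1 of 7 called, where 3.24% of all genes were called and 1.49% were higher. It was between 46887 and 62587 CPM with a locked wheel (median 50361) and between 56940 and 76474 CPM with a running wheel (median 62571), at 0.31 (SE 0.078, adjusted p = 0.0172). The groups overlapped. The call was lost without male control locked mouse 20 or running mouse 10, and without the 11 mice with liver markers (0.28, adjusted p = 0.0725). In male HuR m-/- mice 0 of 7 were called in limma, where 0.0419% of all genes were called, and 0 of 7 had an unadjusted p below 0.05, with the same 0 by DESeq2.

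**Figure D4:**
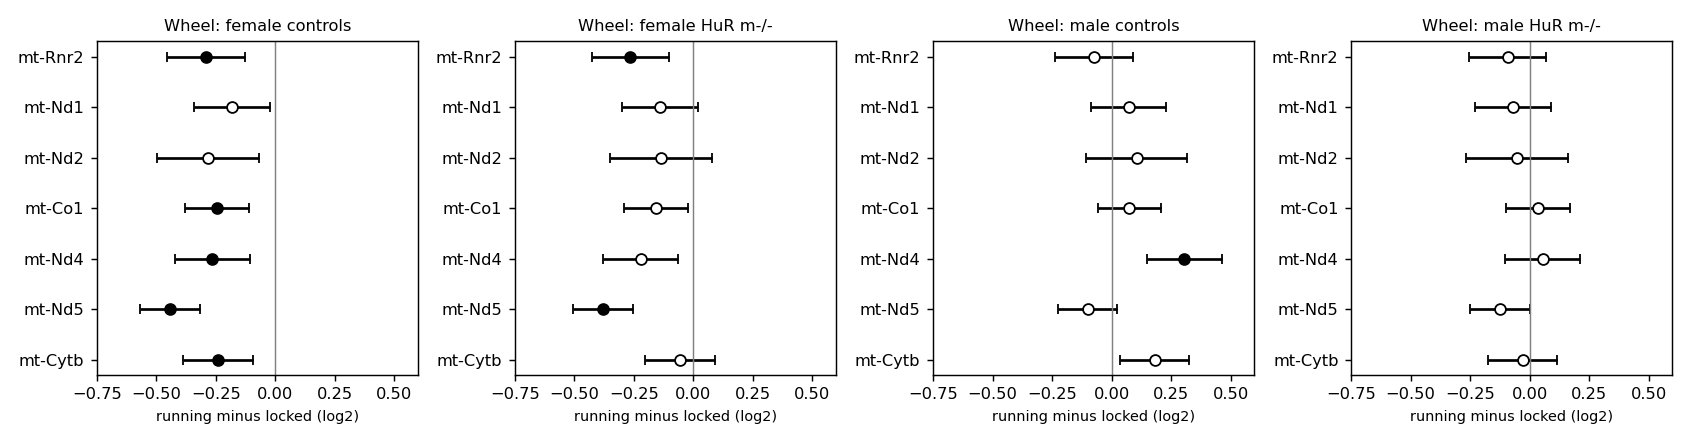
Log2 difference, running minus locked wheel, of the 7 transcripts in female controls, female HuR m-/- mice, male controls and male HuR m-/- mice, with 95% intervals; filled points are called at an adjusted p of 0.05 or less. In female controls the 7 estimates lie between -0.44 and -0.18, and in male controls between -0.10 and 0.31.

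The wheel difference itself was tested between the sexes, as an interaction averaged over genotype. It was called for 4 of 7 transcripts, where 13.7% of all genes were called and 6.9% were lower, each with a wheel difference more negative in females. mt-Nd4 was at -0.42 (SE 0.079, adjusted p = 0.00015), mt-Nd5 at -0.30 (adjusted p = 0.000726), mt-Co1 at -0.26 (adjusted p = 0.00608) and mt-Cytb at -0.22 (adjusted p = 0.0296). mt-Nd2, mt-Rnr2 and mt-Nd1 were at -0.24, -0.20 and -0.16 and were not called. The call of mt-Cytb was lost without female HuR m-/- running mouse 22 or male control running mouse 10, with adjusted p up to 0.0604, and without the 11 mice with liver markers (adjusted p = 0.0813). The test of a different wheel effect by genotype called 0 of 7, with 0 of 7 at an unadjusted p below 0.05, and the three-way test 0 of 7, with 1 of 7.

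Other markers moved with the wheel by sex as well. For the same interaction 13.7% of all genes were called. Of the markers, 6 of 10 leukocyte, 4 of 10 adipocyte and 4 of 7 erythroid genes were called, all more negative in females. Of the nuclear subunits, 7 of 36 of complex I and 1 of 9 of complex III were more negative in females. So were 3 of 13 of complex IV and 4 of 17 of complex V, while 1 of complex III was more positive. On average 7 of 20 liver markers were lower with a running wheel, where 5.96% of all genes were called. Summed erythroid markers had medians of 3747 CPM in locked and 1639 CPM in running female controls, against 1114 and 1290 CPM in male controls. Their part in the results was not tested.

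The remaining 15 tested genes of the mitochondrial genome set the wheel result in context. The 12S ribosomal RNA mt-Rnr1 was lower with a running wheel, as mt-Rnr2 was (-0.22, SE 0.042, adjusted p = 0.000621). Of the transfer RNA genes, 11 of 12 were lower with a running wheel, where 5.96% of all genes were called. The remaining one, mt-Ti, was at -0.29 with an adjusted p of 0.0517. The median of the 12 was -0.56. Whether these reads came from cut-out transfer RNAs, from uncut precursors or from neighbouring genes was not tested. mt-Tm, the transfer RNA for methionine, had the smallest adjusted p, 7.13e-09, at -0.50.

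In female HuR m-/- mice mt-Tm was between 419 and 564 normalized CPM with a locked wheel (median 483) and between 214 and 319 CPM with a running wheel (median 234), so these mice did not overlap. In male controls it was between 258 and 396 CPM with a locked wheel and between 224 and 350 CPM with a running wheel, which overlapped. In female controls 6 of 12 transfer RNA genes were called lower, in female HuR m-/- mice 11 of 12, in male controls 1 and in male HuR m-/- mice 0. Of all genes, 8.74%, 3.85%, 3.24% and 0.0419% were called in these pairs. The interaction of sex and wheel was called for 6 of 12, each more negative in females, where 13.7% of all genes were called.

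Averaged over sex and wheel, the transfer RNA genes differed by genotype in the other direction from the messengers. In mice labelled HuR m-/- 7 of 12 were higher and 0 lower, where 11.8% of all genes were called, with a median of 0.29. mt-Tt and mt-Ts2 had the smallest adjusted p at 0.54 and 0.51 (0.00108 and 0.00104). Without the 11 mice with liver markers 4 of 12 were higher. Among single pairs, 3 of 12 were higher in running males, where 2.63% of all genes were called, with a median of 0.33. In locked females, locked males and running females 0 of 12 were called, where 0.384%, 1.15% and 0% of all genes were called. The medians of the 12 there were 0.415, 0.333 and -0.03. For sex 5 were higher and 1 lower in females, where 33% of all genes were called, with mt-Tp at 0.78 and mt-Ti at -0.55. The counts behind several of the 12 tested genes are small, with medians per mouse from 11 for mt-Tf to 3941 for mt-Tm. The medians of mt-Tt and mt-Ts2 were 40.5 and 42.5. Several transfer RNA genes abut or overlap the measured messengers, so a read across the boundary could be counted for either.

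**Figure D5:**
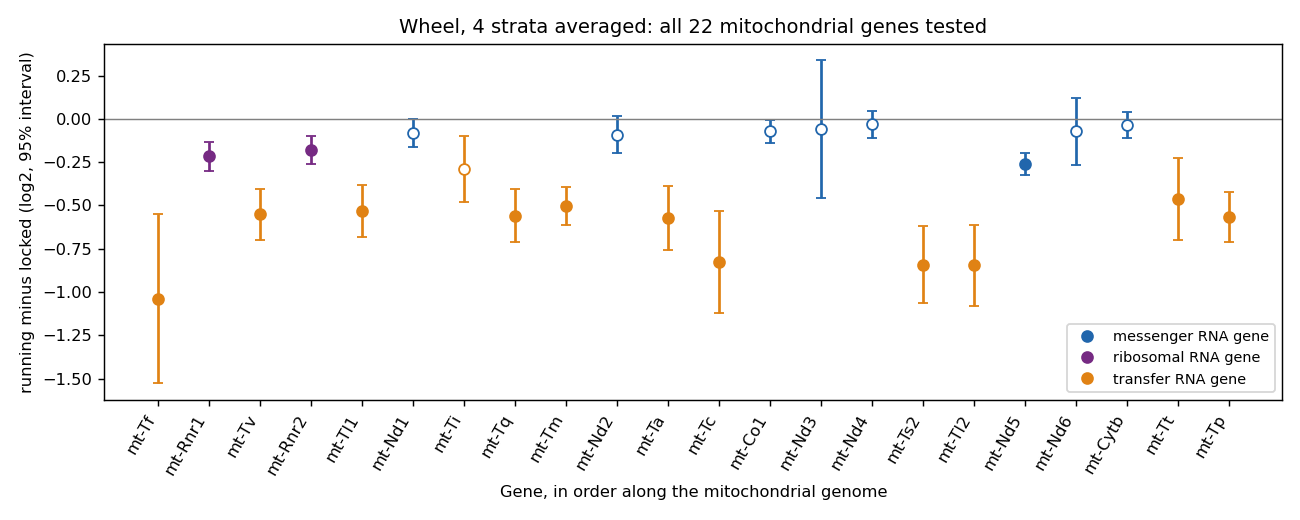
Log2 difference, running minus locked wheel averaged over 4 pairs of groups, of the 22 tested mitochondrial genes in their order along the genome, with 95% intervals, coloured by RNA class; filled points are called at an adjusted p of 0.05 or less. The 12 transfer RNA genes lie between -1.04 and -0.29, the ribosomal RNAs at -0.22 and -0.18.

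mt-Nd6, the complex I subunit encoded on the other strand, differed from the 6 messengers by sex: it was 0.67 higher in females (SE 0.097, adjusted p = 1.29e-07). It had a median of 174.5 counts per mouse and overlaps the end of mt-Nd5 on the opposite strand, and whether the counting used strand is not given in the sources used here. mt-Nd3, with 98.0% of its 50-base windows shared with a nuclear copy, was not called for wheel, genotype or sex.

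Within groups the 6 messengers varied together only in part. Deviations from the group means gave Pearson correlations between 0.108 and 0.613 over the 15 pairs of messengers in 56 mice, with a median of 0.418. mt-Rnr2 and a messenger correlated between -0.299 and 0.227, while mt-Rnr2 and mt-Rnr1 correlated at 0.913. Gm42418 correlated between -0.436, with mt-Nd4, and 0.303, with mt-Rnr2. These values share the library and its total, and are descriptions.

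Among the 10 nuclear genes whose deviations were most like the mean of the 6 messengers, by Pearson correlation over 56 mice, were Pla2g16 (0.719), Sucla2 (0.716), Mmab (0.714), Pla2g12a (0.697), Atp5j2 (0.693), Aes (0.688), Coq9 (0.683), Atp5a1 (0.677) and Perm1 (0.675). Sucla2 encodes a subunit of a citric acid cycle enzyme, Coq9 a protein of coenzyme Q synthesis, and Atp5j2 and Atp5a1 subunits of the ATP synthase. The least alike were Rock1 (-0.587), Galnt7 (-0.571), Rab36 (-0.556), Tmod2 (-0.551) and Fnbp4 (-0.55). Of all nuclear genes tested, 99% had a correlation below 0.533.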

How the data were processed

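Gastrocnemius RNA of 56 mice was analysed from 1 table of raw gene counts that the authors deposited, in whole numbers and not normalized. The submitters' processing notes name GRCm38/mm10, R 4.0.3 and edgeR 3.38.4; the aligner and counter are not given in the sources used here. The labels name a 3′ mRNA kit with 50-base reads and the study's methods a stranded total RNA kit after ribosomal RNA depletion, and which was used was not tested. No listed gene had under 168 counts in all mice combined. GENCODE M21 gave symbols for 15503 of 15539 genes, and the positions and transcript sequences of the mitochondrial genes.

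Groups came from the sample labels. The 10 genes, the other lists and the rule for named genes (all 10, the other mitochondrial genes, called genes of the lists by adjusted p, and the 10 most and 5 least alike) were chosen with earlier results of these data known. Some genes that this rule names are not reported here. The planned composition over 10 transcripts was computed over the 7 with counts.

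The main test was TMM (edgeR 4.0.16), filterByExpr, voom and limma 3.58.1 in R 4.3.3, with 1 fit of 8 groups and Benjamini-Hochberg adjustment per comparison. The composition was compared with exact permutation tests for pairs of groups (scipy 1.17.1) and 100000 resamples within strata for averages. Both were tested on simulated data. Alternatives were other scalings, filters, DESeq2 1.42.0, edgeR's quasi-likelihood test, quality weights, fewer groups, a replicate block and each mouse left out. The comparisons without 11 mice, the alternatives for transfer RNA genes and some for interactions were chosen after seeing the data. Mouse counts of 1 group were never alike within sampling noise, with chi-square per degree of freedom from 3.56 to 49.8 over 168 pairs. Replicates are separate mice.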

Additional observations from a re-analysis of the deposited data

Results flagged for a closer look

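In 4 transcripts the wheel difference differed between the sexes by the test of the interaction itself, in log2 values of females minus males: mt-Nd4 at -0.42, mt-Nd5 at -0.30, mt-Co1 at -0.26 and mt-Cytb at -0.22.

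In 8 of 80 groups of 7 values, 1 mouse lay far from the others by Dixon's criterion, where chance gives about 1 in 20. As a percentage of all counts, mt-Nd4 was 4.75% in female control running mouse 26 (others up to 4.23%) and 5.47% in male HuR m-/- locked mouse 12 (others up to 4.66%). mt-Cytb was 1.62% in female HuR m-/- locked mouse 34 (others from 2.33%) and 2.09% in female HuR m-/- running mouse 22 (others from 2.40%). mt-Co1 was 0.483% in female control running mouse 27 (others up to 0.45%), and mt-Rnr2 was 6.56% in female control running mouse 28 (others from 7.65%). The 6 messengers summed to 17.3% in male HuR m-/- running mouse 4 (others up to 15.8%). mt-Rnr2 made up 27.8% of the counts on the 7 transcripts in male HuR m-/- locked mouse 12 (others from 34.03%).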

How the results depend on the processing

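The averaged counts of 2, 6 and 6 called transcripts for wheel, genotype and sex held under every alternative run and with each mouse left out, as did 0 calls in the tests of genotype by wheel, sex by genotype and the three-way term and 6 calls for sex in running controls. With library totals and no factors, mt-Nd4 and mt-Cytb turned positive for the averaged wheel effect (0.021 and 0.018) and mt-Rnr2 for the averaged sex effect (0.056); the last was also 0.002 with upper-quartile factors and 0.017 without the 11 mice with liver markers. None of these was called, and the cause was not tested.

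Counts moved as follows. For the wheel in female HuR m-/- mice 1 transcript was called with library totals, no filter, edgeR's quasi-likelihood test, quality weights, only the groups compared or without the 11 mice. In male controls 2 were called with library totals or quality weights and 0 without the 11 mice, and in female controls 1 without them. For genotype 1 was called in locked males with DESeq2, and in running males 2 with only the groups compared and 0 without the 11 mice. For sex in locked controls 0 were called with upper-quartile factors, library totals or without the 11 mice and 2 with only the groups compared; in locked HuR m-/- mice 0 with library totals, only the groups compared or without the 11 mice and 2 with quality weights; in running HuR m-/- mice 2 with library totals. Transfer RNA genes called for genotype were 4 without the 11 mice.

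With 1 mouse left out at a time, calls ranged from 2 to 5 (wheel, female controls), 1 to 2 (wheel, female HuR m-/-), 0 to 1 (wheel, male controls), 0 to 1 (genotype, locked males), 2 to 6 (genotype, running males), 0 to 1 (sex, locked controls), 1 to 2 (sex, locked HuR m-/-), 3 to 6 (sex, running HuR m-/-) and 3 to 4 (interaction of sex and wheel). Transfer RNA calls ranged from 11 to 12 for the wheel, 6 to 9 for genotype and 5 to 7 for sex. The mt-Rnr2 percentage differed between -2.10 and -1.59 points for the wheel, 1.74 and 2.25 for genotype and 3.64 and 4.26 for sex. In single pairs the differences ran from -0.885 to -0.371 and -2.37 to -1.15 (wheel, female controls and female HuR m-/-), -4.85 to -2.80 and -2.40 to -0.566 (wheel, male controls and male HuR m-/-), 1.56 to 2.72 and 0.484 to 1.55 (genotype, locked and running females), 0.541 to 2.35 and 2.75 to 4.80 (genotype, locked and running males), and 2.41 to 3.25, 5.05 to 7.10, 2.60 to 4.43 and 2.63 to 3.91 (sex, locked and running controls, locked and running HuR m-/-). The wheel difference in male controls and the genotype difference in running males passed the threshold without male control running mouse 26 (adjusted exact permutation p = 0.0105 and 0.015). The sex difference in locked HuR m-/- mice passed without female mouse 30 of that group, and that in running HuR m-/- mice without female or male mouse 21 (lowest adjusted p = 0.0466 and 0.0353). The log2 ratio of mt-Rnr2 to the messengers changed no call. Without the 11 mice the wheel, genotype and locked-control sex differences lost their calls, at -2.251, 1.558 and 3.005 points.

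The share of the 7 transcripts with Gm42418 taken out of the total, and the share of the 6 messengers with mt-Rnr2 taken out of the total that held Gm42418, were 28.5% and 17.7% in locked and 24.4% and 14.8% in running female controls, 26.3% and 15.7% in locked and 24.1% and 14.5% in running female HuR m-/- mice, 27.5% and 17.8% in locked and 29.5% and 20.7% in running male controls, and 25.5% and 16.3% in locked and 25.9% and 16.9% in running male HuR m-/- mice. The first rises because the total is smaller, and the second is lower than the share of the 7 because mt-Rnr2 is not in it.

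Over all genes, the averaged wheel effect called 854 genes (490 higher), 1580 with library totals (1381 higher), 1331 with quality weights and 324 without the 11 mice, without which genotype called 886 genes in place of 1695. Library totals also moved the split for genotype from 634 of 1695 higher to 1594 of 2100 and for sex from 2269 of 4720 to 3608 of 5079, and shifted the median of all genes to 0.063 for wheel, 0.073 for genotype and 0.081 for sex. The wheel split was 516 of 1178 with DESeq2 and 501 of 1084 with edgeR's quasi-likelihood test, and the genotype split 821 of 1707 with upper-quartile factors.

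Mouse numbers are shared between males and females only, in 12 pairs of mice from compared groups. The deviations of these pairs correlated between -0.202 and 0.183 (median 0.062), over 0.1 in 5. In the 184 pairs with other numbers they correlated between -0.296 and 0.451 (median -0.013), over 0.1 in 41. The 12 pairs are too few to settle whether a shared number pairs the mice, and the main fit did not pair them. The replicate block (consensus correlation 0.0222) left the counts of called transcripts at 2, 6 and 6. Depth does not limit the 7 transcripts; it does limit the transfer RNA genes with few counts.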

Other observations

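Other cell markers, from lists chosen with earlier results known, gave these counts in the averaged comparisons, where 5.96% of all genes were called for wheel, 11.8% for genotype and 33% for sex. With a running wheel 3 of 7 endothelial markers were higher, 6 of 9 fast fibre markers were lower and 1 higher, 1 of 8 slow fibre markers was higher, and 0 of 6 Schwann cell markers were called. In mice labelled HuR m-/- 3 of 6 Schwann cell markers were higher. In females 5 of 9 fast fibre markers were lower. Of 4 tested brown adipocyte markers, 1 was higher with the wheel, 1 was lower in mice labelled HuR m-/- and 1 was lower in females.

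The ratio of the counts of mt-Rnr2 to those of mt-Rnr1, the neighbouring ribosomal RNA, was 4.74 ± 0.26 (SD, n = 56) and ran from 4.28 to 5.55. Its highest group mean was 5.17 in running male controls, and its lowest was 4.48 in locked female controls.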
